A study of Mus musculus with 38 samples.

Results

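The mRNA of 10 myeloid C-type lectin and Trem receptors was followed through tumor progression and through chemotherapy in the MMTV-PyMT model of breast cancer. The genes were Clec4d (also called Clecsf8), Clec4e (Clecsf9), Clec4n (Clecsf10), Clec7a, Clec4a2, Clec5a, Mrc1, Treml4, Trem1 and Trem2, found on the array by their names or older names, and they made up 10 of the 27670 genes measured. The set was chosen by measured values, because Clec4d and Treml4 were among the strongest changes in disseminated tumor cells. Levels in those cells are therefore given as a description with no test, and tests are reported only for comparisons between other groups. The disseminated samples still entered the normalization and the estimate of spread behind the progression tests.

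C-type lectin receptors of myeloid cells recognize sugars and glycolipids of microbes and of dying cells. Clec4d, Clec4e and Clec4n pair with the adaptor Fcer1g, Clec7a carries a signalling motif of its own, and Clec5a, Trem1, Trem2 and Treml4 pair with the adaptor Tyrobp. Both routes recruit the kinase Syk, which acts through Card9, Bcl10 and Malt1 to induce cytokines. In the lung and in tumors these receptors are known mainly as products of macrophages, monocytes, neutrophils and dendritic cells.

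All 38 samples were GFP-positive cells sorted from mice that carried transplanted tumor foci. Focal hyperplasias from 3-week-old female mice carrying MMTV-PyMT and actin-GFP were placed in the cleared fat pads of 3-week-old FVB/n females, so every group shares both transgenes in its donor cells and a host without them. The progression experiment held 5 adenoma samples (outgrowths of 5 weeks), 6 carcinoma samples (18 weeks), 6 samples of disseminated cells from the lungs of mice with 18-week outgrowths and 5 samples of lung metastases, collected 8 to 10 weeks after the 18-week primary tumor was removed. The chemotherapy experiment held 6 untreated samples (labelled Control), 6 residual samples (labelled Regressed tumor) taken 10 days after 1 dose of TAC (docetaxel, doxorubicin and cyclophosphamide, given every 21 days from 8 weeks) and 4 relapsed samples (labelled Resistant tumor) taken 10 days after dose 4. The MMTV promoter drives PyMT mainly in mammary epithelium, whereas the actin promoter is active in most cell types. The sort was therefore for GFP, the mark of donor cells, and not for epithelium as such. Whether host cells of the lung entered the sorted samples was not tested. Each sample of disseminated cells pooled the lungs of 3 to 6 mice.

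Each sample was hybridized in Cy5 against a common Cy3 mouse reference RNA, and every level below is a normalized log2 ratio of sample to reference, on which a difference of 1 is a doubling. Of the probes on an array, 48.4% to 78.9% were well above background in the sample channel. Carcinoma 6 stood apart from its group, with a median correlation of 0.76 across genes with the other carcinomas against 0.94 to 0.96 for each of those 5, and results that rest on it are given with and without it. Correlations were also low for disseminated 6 (0.71) and 4 (0.78), against 0.84 to 0.85 for the other disseminated samples. Metastases 4 had 0.78, against 0.85 to 0.89 for the other metastases. The mammary epithelial list (10 genes, among them Epcam, Krt8 and Krt18) was detected in full on every array, but its mean level was 0.24 in disseminated 3 and 0.60 in disseminated 5 and to 0.15 in metastases 4, against 2.76 to 4.28 in the adenoma and carcinoma samples. The labels do not say whether samples came from separate mice, so the p-values measure the spread between these samples.

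Promoters are shown for Clec4d and Treml4, the receptors that prompted the set, for Clec4e, the neighbour of Clec4d, and for Clec7a, which differed most between metastases and carcinoma. In the RefSeq annotation of assembly GRCm38.p6, Clec4n, Clec4d and Clec4e are consecutive protein-coding genes on chromosome 6, and Trem1, Treml4 and Trem2 lie in the Trem cluster of chromosome 17. Mrc1 is on chromosome 2, and Clec5a is on chromosome 6 apart from the Clec4 genes. A promoter window was found for 9 of the 10 genes (Clec4n had no entry). The 250 bases before the transcription start are printed for 4 of them, 5′ to 3′ on the strand of the gene: the neighbours Clec4d (chr6:123261857-123262106, plus strand) and Clec4e (chr6:123289872-123290121, minus strand), Clec7a (chr6:129472780-129473029, minus strand) and Treml4 (chr17:48264045-48264294, plus strand). Capitals mark GAGGAA, the core bound by the myeloid factor PU.1, on either strand.
Clec4d: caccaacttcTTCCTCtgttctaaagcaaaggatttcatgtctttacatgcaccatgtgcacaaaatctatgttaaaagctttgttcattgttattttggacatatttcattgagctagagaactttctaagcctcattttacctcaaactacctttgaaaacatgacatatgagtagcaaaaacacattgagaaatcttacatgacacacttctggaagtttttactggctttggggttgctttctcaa
Clec4e: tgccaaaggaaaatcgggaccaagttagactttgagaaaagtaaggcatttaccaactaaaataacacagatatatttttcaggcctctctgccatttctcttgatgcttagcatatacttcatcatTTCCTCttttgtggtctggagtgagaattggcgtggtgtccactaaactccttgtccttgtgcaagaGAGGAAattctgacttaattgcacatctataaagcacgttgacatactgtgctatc
Clec7a: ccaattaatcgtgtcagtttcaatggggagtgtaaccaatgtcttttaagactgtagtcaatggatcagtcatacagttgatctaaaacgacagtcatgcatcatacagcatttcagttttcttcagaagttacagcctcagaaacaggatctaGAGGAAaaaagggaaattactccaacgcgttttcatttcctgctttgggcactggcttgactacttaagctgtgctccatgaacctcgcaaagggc
Treml4: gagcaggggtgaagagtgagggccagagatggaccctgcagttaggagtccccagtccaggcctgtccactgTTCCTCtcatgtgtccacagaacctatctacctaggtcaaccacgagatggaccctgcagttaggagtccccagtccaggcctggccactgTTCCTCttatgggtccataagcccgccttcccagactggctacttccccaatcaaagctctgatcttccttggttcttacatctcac

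GAGGAA or its reverse complement TTCCTC was present in the windows of 8 of the 9 genes, all but Clec4a2, and in 23.3% of the 32851 RefSeq windows of the same length. Of 8 motifs searched on both strands, the related ETS letters GGAAGT, which can overlap GAGGAA by sharing GGAA, were found in 5 of the 9 (19.7% of all windows) and the TATA box TATAAA in 3 (12.4%). The C/EBP letters TTGCNNAA occurred only in Clec4e (9.56%) and the AP-1 letters TGANTCA only in Trem2 (6.75%). The letters GGGNNTTTC for NF-kB (3.72%), GAAANNGAA for interferon-stimulated elements (7.13%) and CACGTG for the E box (6.02%) had no match in these 9 windows. A match is a run of letters and does not show that a factor bound there.

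Disseminated cells had the highest mean level of all 4 progression groups for each of the 10 receptors. These values chose the genes and are given without a test. Clec4d lay between 4.01 and 6.33 in the 6 samples of disseminated cells (median 5.06), and was -2.87, -2.27, -1.94, -2.15 and -2.19 in the 5 adenomas. The 2 groups were far apart, with a difference of means of 7.38, or 166-fold. Treml4, a Trem-like receptor that binds dying cells, lay between 5.09 and 7.81 in disseminated cells (median 7.11) against 1.02, 0.05, -0.16, -0.14 and 1.27 in adenoma, a difference of 6.41. Treml4 was above background in 3 of the 5 adenomas, and the reference in 2 of them, so no fold is given. In the same samples of disseminated cells the means of marker lists were also above adenoma, at 3.18 to 4.48 against 0.08 to 0.68 for macrophages, 3.78 to 5.36 against 0.12 to 0.63 for alveolar macrophages and 3.47 to 6.10 against 1.75 to 2.07 for neutrophils. The same held for monocytes (0.58 to 3.46 against -0.12 to 0.39), endothelium (1.24 to 2.84 against 0.04 to 0.41) and lung epithelium (2.07 to 3.59 against 0.91 to 1.52). Dendritic, T and NK, and B cell means overlapped between the groups, and the mammary epithelial mean was 0.24 to 3.72 against 3.50 to 4.23. Their part in the receptor levels was not tested.

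For all 10 receptors every sample of disseminated cells was above every adenoma, and 4.28% of all genes were higher without overlap in this comparison, a count from which nothing is read because the contrast entered the choice. The smallest difference was that of Trem2 (3.65, 12.6-fold), a lipid-sensing receptor of macrophages. Against carcinoma, only Treml4 was without overlap (2.11% of all genes were higher without overlap), whereas without carcinoma 6 all 10 were (6.38% of all genes). In the metastases all 10 means were below those of disseminated cells, with differences from -0.61 (Clec5a) to -3.61 (Treml4). Clec4a2 (-2.30) and Treml4 were lower without overlap (2.03% of all genes were). Clec4d differed by -3.14, with metastases 4 inside the range of disseminated cells.

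**Figure D1:**
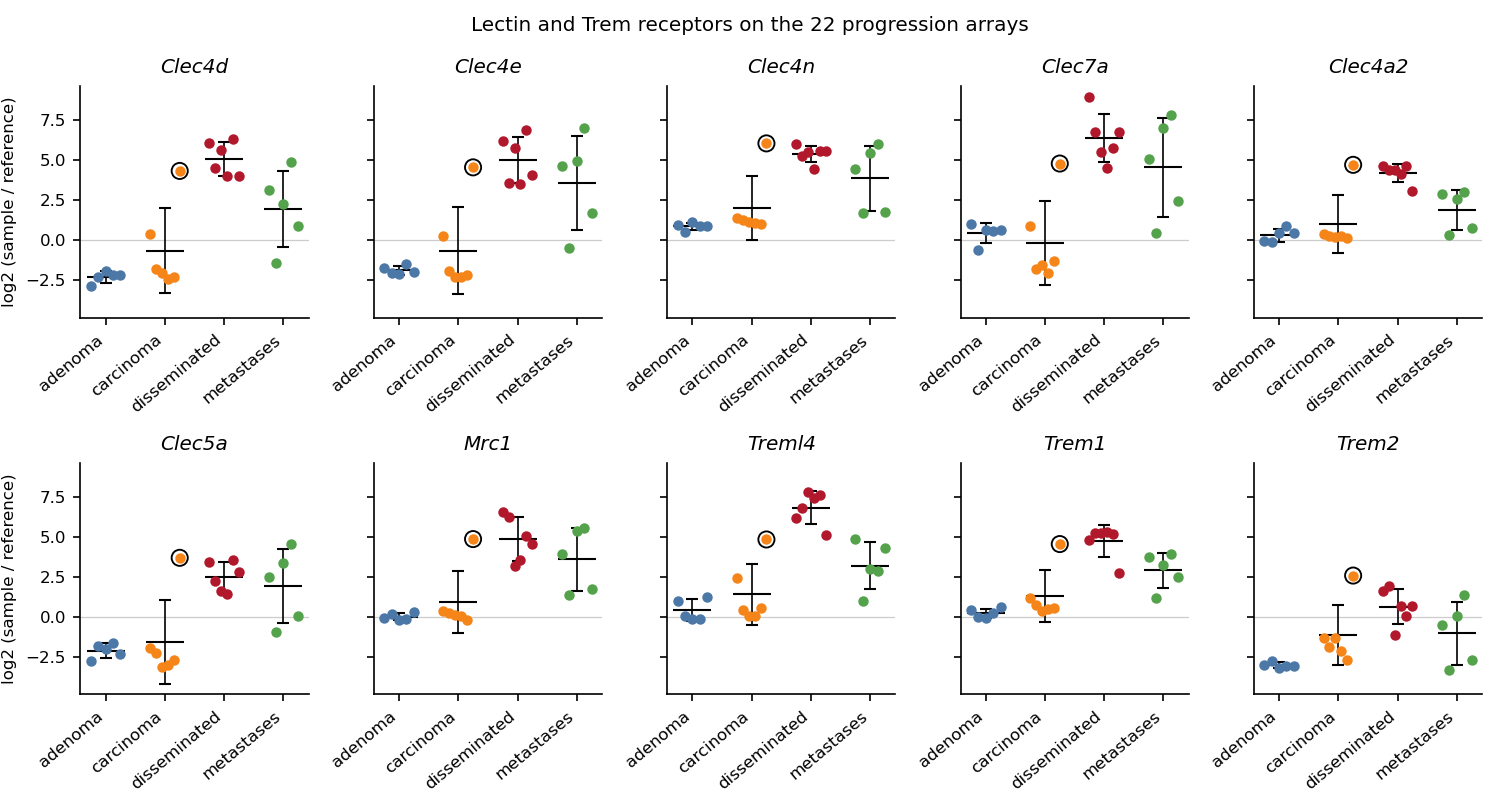
Levels of the 10 receptors on the 22 progression arrays. The vertical axis is the normalized log2 ratio of sample to reference; each point is an array, placed by group, and bars are the group mean ± SD; the ringed point is carcinoma 6. Disseminated cells lie above every adenoma in each panel, and carcinoma 6 is the highest carcinoma in each.

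The carcinoma group held 1 sample with high levels of every receptor and 5 with lower ones. Carcinoma 6 was the highest of its group for all 10 genes, and stood 3.89 (Trem1) to 6.30 (Clec5a) above the mean of the other 5. For 5 genes (Clec4d, Clec4e, Clec7a, Mrc1 and Trem1) its value fell inside the range of disseminated cells. On the same array the macrophage list (10 genes, among them Adgre1, Csf1r and Lyz2) had a mean of 4.49, against -0.02 to 0.90 on the other carcinoma arrays and 3.18 to 4.48 in disseminated cells. Its neutrophil list (9 genes measured) stood at 4.0 against 1.95 to 2.49, and its mammary epithelial list at 2.76 against 3.66 to 4.28. The part of these cell types in the receptor levels was not tested, and in sorted bulk samples more cells of a type and more RNA per cell cannot be told apart. Carcinoma 1 was next for each of the 10, with Clec4d at 0.37 and Treml4 at 2.42, where carcinomas 2 to 5 lay between -2.41 and -1.80 and between 0.05 and 0.55.

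No receptor was called between carcinoma and adenoma, where 3.39% of all genes were called in either direction. A call needed a Benjamini-Hochberg adjusted p under 0.05 together with a change of 1 log2 unit or more. By limma, 1 receptor (Trem2) had an unadjusted p below 0.05. Means were above adenoma for 9 of the 10 and below it for Clec7a, with a median difference of 1.03 against 0.07 over all genes. Without carcinoma 6 that median was 0.25. Trem2 was the gene whose samples separated: it was -2.99, -2.73, -3.20, -3.04 and -3.10 in adenoma and -2.67 or higher in each carcinoma (6.02% of all genes were higher without overlap). Its difference was 1.88 ± 0.86 (SE, limma, adjusted p = 0.16), and without carcinoma 6 it was 1.14 (adjusted p = 0.31). For Clec7a, the beta-glucan receptor, the 95% interval of the difference ran from -3.28 to 2.01. Leaving out carcinoma 6, no receptor was called either (1.43% of all genes were called higher and 1.99% lower), and 3 genes (Clec7a, Clec4a2 and Clec5a) then had lower means in carcinoma than in adenoma.

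In the metastases 8 of the 10 receptors rose relative to adenoma, and none fell (6.12% of all genes were called higher). The comparison asks whether tumor cells growing in the lung differ from early tumors in the gland. Clec4e, the glycolipid receptor also known as Mincle, was -1.72, -2.03, -2.12, -1.47 and -2.0 in adenoma and 4.62, -0.45, 4.94, 7.04 and 1.73 in metastases 1 to 5. Its difference was 5.44 ± 1.29 (SE, 43.6-fold, limma, adjusted p = 0.0038), and it lay between 4.58 (without metastases 4) and 6.45 (without metastases 2) with 1 sample left out. Every metastasis exceeded every adenoma, but the metastases spanned 7.49 log2 units. In all, 6 of the 10 receptors were higher without overlap (9.82% of all genes). Clec4d, its neighbour and partner, was 3.13, -1.43, 2.29, 4.87 and 0.91 in the metastases, 4.24 ± 1.13 above adenoma (SE, 18.9-fold, adjusted p = 0.0084), with 3.51 to 5.08 when the same samples were left out. The adenoma values of Clec4d and Treml4 also entered the choice of the set. The tests of these genes against adenoma are therefore not independent of that choice.

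Clec5a, an activating receptor of monocytes and macrophages, was -2.77, -1.80, -1.99, -1.64 and -2.34 in adenoma and 2.50, -0.96, 3.37, 4.58 and 0.06 in metastases, without overlap. It rose by 4.02 ± 1.10 (SE, adjusted p = 0.010). Mrc1, the mannose receptor of macrophages, was not above background in 3 of the 5 adenomas (values -0.22 to 0.31) and was 3.95, 1.37, 5.35, 5.55 and 1.73 in metastases. It was called higher by 3.58 ± 0.95 (SE, adjusted p = 0.0077), and by 6.06 from the scanner's processed signals (adjusted p = 0.0025). With the reference above background in 11 of 22 progression arrays, the size of this difference is uncertain. Clec7a rose by 4.09 ± 1.32 (SE, adjusted p = 0.025), yet its metastases 2 value of 0.44 lay inside the adenoma range of -0.60 to 0.99. Its call was lost without metastases 1, 3 or 4 or without adenoma 2 (adjusted p = 0.051, 0.073, 0.080 and 0.056). Clec4n, which binds fungal mannans, rose by 3.01 ± 0.88 (SE, adjusted p = 0.014), with 4.48, 1.74, 5.45, 6.0 and 1.75 in the metastases.

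Trem1 and Treml4 rose as well. Trem1, which amplifies inflammatory signals in neutrophils and monocytes, was 3.71, 1.19, 3.23, 3.93 and 2.47 in the metastases against -0.05 to 0.58 in adenoma, a rise of 2.68 ± 0.68 (SE, adjusted p = 0.0063). Treml4 was 4.86, 1.01, 3.01, 2.88 and 4.28, a rise of 2.80 ± 0.83 (SE, adjusted p = 0.016), and its metastases 2 value overlapped adenoma. Treml4 was highest in metastases 1 and 5, the arrays on which the neutrophil list stood at 4.06, against 1.80 to 2.40 on the others. The other 9 receptors were lowest in metastases 2 and next lowest in metastases 5. Trem2 (1.98, 95% interval 0.11 to 3.85, adjusted p = 0.10) and Clec4a2, an inhibitory receptor (1.60, 95% interval 0.11 to 3.09, adjusted p = 0.10), were not called.

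**Figure D2:**
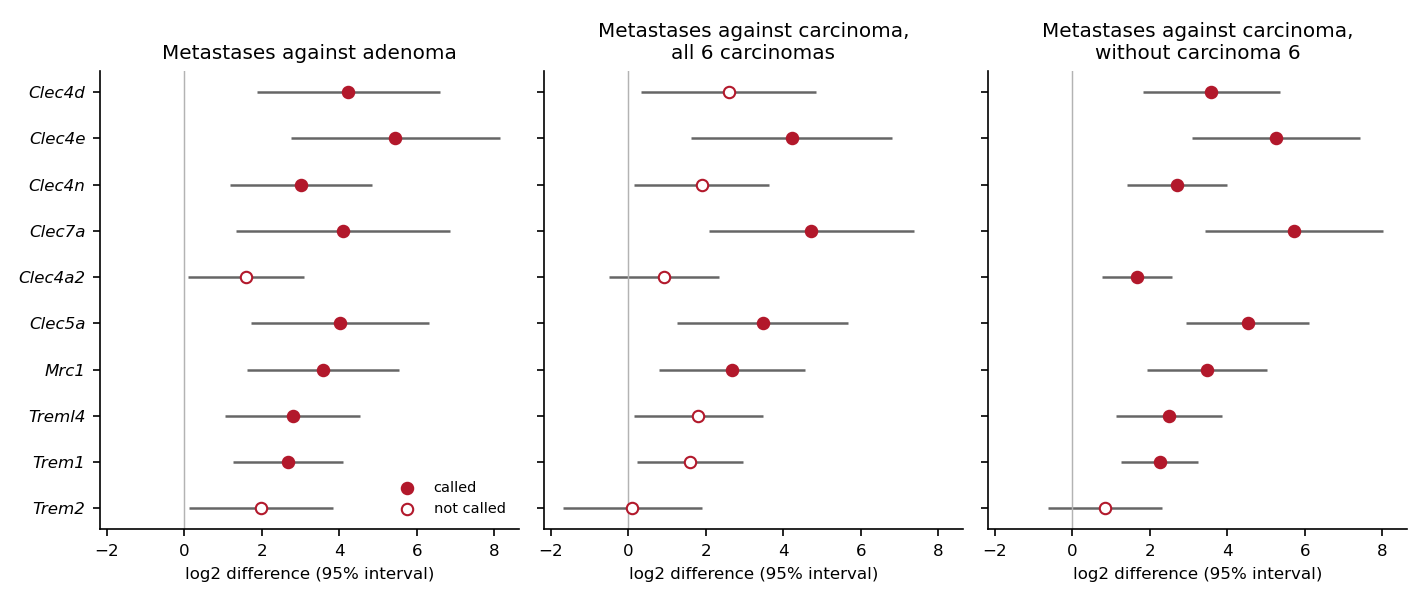
Differences of the receptors in 3 tested comparisons. The horizontal axis is the log2 difference of means (metastases minus the group named) from limma, lines are 95% intervals, filled points were called (adjusted p under 0.05, change of 1 or more) and open points were not. The number called is 8 against adenoma, 4 against all 6 carcinomas and 9 without carcinoma 6.

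Against carcinoma, 4 of the 10 receptors were higher in the metastases with all 6 carcinomas in the fit, and 9 without carcinoma 6. With all samples the 4 were Clec7a (4.72 ± 1.27, SE, adjusted p = 0.012), Clec4e (4.21 ± 1.24, adjusted p = 0.019), Clec5a (3.47 ± 1.06, adjusted p = 0.023) and Mrc1 (2.68 ± 0.90, adjusted p = 0.039), where 4.75% of all genes were called higher. With slide as a fixed block Mrc1 was not called (2.72, adjusted p = 0.059), and its call was lost in 12 of 29 settings. The call of Clec5a was lost in 9 of 29 settings, the mean of its probes among them. That of Clec4e was lost in 4 and that of Clec7a in 1. With only metastases and carcinoma fitted, Clec4e, Clec5a and Mrc1 lost their calls and Clec7a kept its call. The main fit shared its estimate of spread with the other progression groups, which varied less. Median SDs of the receptors were 2.00 (metastases) and 1.97 (carcinoma), against 0.31 (adenoma) and 1.04 (disseminated). No receptor separated metastases from carcinoma (4.78% of all genes were higher without overlap), since carcinoma 6 lay within or above the range of the metastases. Without carcinoma 6 the largest were Clec7a (5.71, adjusted p = 0.00098) and Clec4e (5.25, adjusted p = 0.0011), 6.45% of all genes were called higher, and Trem2 was the receptor not called (0.85, 95% interval -0.62 to 2.31). Clec4n, Clec5a, Mrc1 and Trem1 were then without overlap (8.56% of all genes). The count was 1 without metastases 3 or without metastases 4, 2 without metastases 1 or any of carcinomas 3, 4 and 5, and 7 without metastases 2. Shares over all genes are not given for these left-out counts.

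Metastases and carcinomas shared their slides, which allowed the comparison to be repeated within each of 3 slides. On 2 slides every receptor was higher in the metastases, by 0.70 (Trem2) to 6.83 (Clec4e). On the third, every receptor was lower in the metastases, with differences from -0.98 (Mrc1) to -3.29 (Trem2). That slide held 2 carcinomas, carcinoma 6 among them, and only 1 metastasis. The metastasis was metastases 2, the lowest of its group for all 10 receptors. Adenomas and disseminated cells lay on 3 other slides scanned on another day, so slide set and day cannot be told apart from group when metastases or carcinoma are compared with adenoma or with disseminated cells.

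Of 16 measured genes for adaptors and Syk-Card9 signalling, 5 were higher in metastases than in adenoma and none lower, with a median difference of 1.41 against 0.01 over all genes. Over all genes 6.12% were called higher in this comparison. Malt1, the protease that acts with Bcl10, was 3.30 ± 1.98 (SD, n = 5) in metastases and -0.28 ± 0.28 in adenoma, and its rise of 3.59 (adjusted p = 0.0040) was the largest. Syk rose by 2.40 (adjusted p = 0.021), Prkcd, the kinase between Syk and Card9, by 2.23 (adjusted p = 0.00021) and Fgr, a Src-family kinase, by 2.08 (adjusted p = 0.015). The adaptors, named here after their values were seen, did not pass the test: Fcer1g differed by 2.27 (adjusted p = 0.15) and Tyrobp by 1.36 (adjusted p = 0.29). Against carcinoma 4 of the 16 were higher (Malt1, Prkcd, Syk and Bcl10), and 11 without carcinoma 6, where 4.75% and 6.45% of all genes were.

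Of 22 other measured lectin and Trem family receptors, 11 rose from adenoma to metastases and none fell, with a median difference of 1.09 (6.12% of all genes were called higher). The largest were Clec4a3 (3.67, adjusted p = 0.022), Cd300lf (3.21, adjusted p = 0.015), Clec10a (3.13, adjusted p = 0.015) and Cd207 (2.77, adjusted p = 0.0088). Ly75, an endocytic lectin of dendritic cells, singled out after its values were seen, was called in all 3 tested progression comparisons. It was lower in carcinoma than in adenoma by a log2 difference of -1.30 (adjusted p = 0.028), and higher in metastases than in adenoma by 1.62 (adjusted p = 0.0039) and than in carcinoma by 2.91 (adjusted p = 8.1e-05). Against carcinoma 2 of the 22 were called higher, and 10 without carcinoma 6, where 4.75% and 6.45% of all genes were.

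Of 13 inflammatory genes that these pathways can induce, 10 rose from adenoma to metastases and none fell, with a median difference of 3.53 (6.12% of all genes were called higher). Cxcl2, a neutrophil chemokine, rose by 4.55 (adjusted p = 0.00018), Il6 by 4.22 (adjusted p = 0.00087), Cxcl1 by 4.21 (adjusted p = 0.00082) and Ccl4 by 3.93 (adjusted p = 0.0079). With all 6 carcinomas in the fit, 3 of these genes were higher in carcinoma than in adenoma, where 1.21% of all genes were called higher. They were Cxcl1 (3.12, adjusted p = 0.014), Cxcl2 (2.22, adjusted p = 0.045) and Il23a (1.74, adjusted p = 0.033). Without carcinoma 6 the count was 1 (1.43% of all genes). Against carcinoma 5 of the 13 were higher in the metastases, led by Ptgs2 (3.12, adjusted p = 0.0062), and 9 were without carcinoma 6. Over all genes the shares called higher were 4.75% and 6.45%.

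Markers of macrophages moved with the receptors across the metastases. In this comparison 7 of 10 macrophage markers and 6 of 8 measured alveolar macrophage markers were higher than in adenoma, among them Lyz2 (5.45, adjusted p = 0.0035), Chil3 (7.64, adjusted p = 5.7e-05) and Ear1 (6.47, adjusted p = 4.7e-06). Over all genes the share called higher than in adenoma was 6.12%. Neutrophil markers split, with 3 of 9 higher (Retnlg, Csf3r and Mmp8) and S100a8 lower, and none of the monocyte (7), dendritic cell (7), T and NK cell (8) or B cell (5) markers was called by limma, where 1, 2, 1 and 1 had an unadjusted p below 0.05. Of these, Klrb1c (0.56, adjusted p = 0.0028), Xcr1 (-0.52, adjusted p = 0.038) and Pax5 (-0.28, adjusted p = 0.028) missed the call by size alone. Endothelial Vwf was called higher (2.59, adjusted p = 0.00052) and mammary epithelial Elf5 lower (-2.52, adjusted p = 0.011). The mean of the macrophage list was 3.23, 1.03, 4.03, 4.86 and 1.13 in metastases 1 to 5, against 0.08 to 0.68 in adenoma, and that of the receptors 3.47, -0.01, 3.73, 4.71 and 1.34. Metastases 2 and 5 were thus the lowest by both measures, and metastases 4, with the highest of both, had the mammary epithelial mean of 0.15. The lung epithelial list (7 genes, among them Sftpc and Scgb1a1) stood at 1.73 to 2.82 in metastases and 0.91 to 1.52 in adenoma, and 2 of its genes were called higher. The part of these cells in the receptor levels was not tested.

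**Figure D3:**
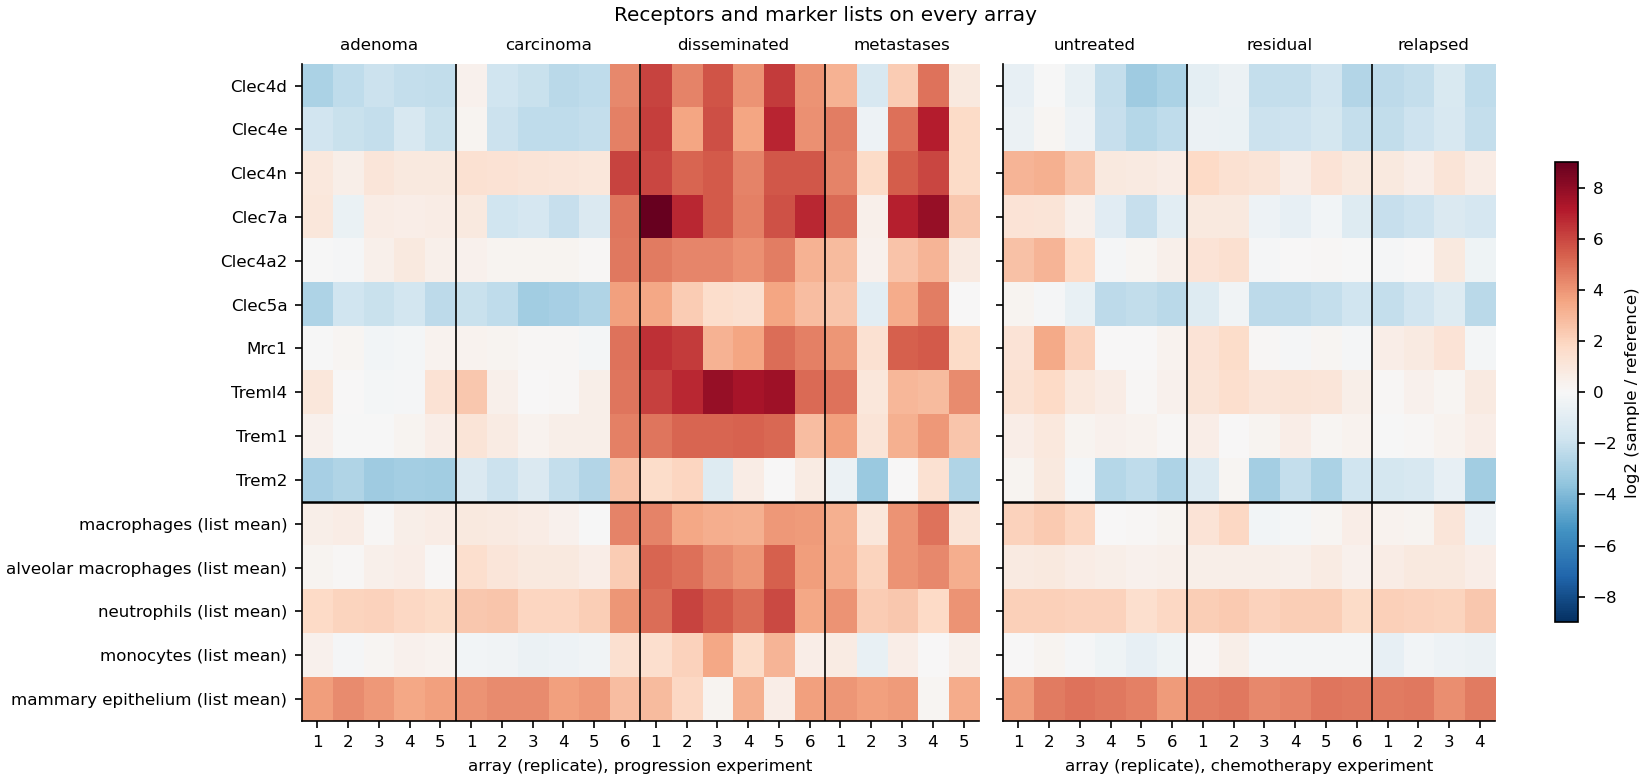
The 10 receptors and the means of 5 marker lists on all 38 arrays. Colour gives the log2 ratio of sample to reference (red above the reference, blue below), columns are arrays numbered by replicate within their group, and the rows under the black line are list means; the experiments were normalized separately. The receptors and the macrophage list are high in carcinoma 6, disseminated cells and metastases 1, 3 and 4. Trem2 is the exception, near or below the reference on some of these arrays (-1.16 in disseminated 3). In untreated 1 to 3 and residual 1 and 2, the macrophage list and all receptors but Trem1 stand above the rest of their own group. Clec4d stays below the reference in these samples.

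Genes with profiles like those of the receptors were sought over the 22 progression arrays, which include the disseminated samples whose values chose the set. Likeness was measured as the root-mean-square difference of log2 ratios after each gene's mean was subtracted, among 19301 genes with a symbol, and is a description. The gene most like Clec4d was Clec4e (0.82 log2 units, where Clec4d itself varied by 3.29), followed by the chemokine Ccl3 (0.83) and the adaptor Fcer1g (0.89). The genes most like Clec4e were Srgn (0.72), Lyz2 (0.78) and Clec4d. Clec4n was closest to the scavenger receptor Msr1 (0.43), Cd68 (0.51) and Tlr1 (0.54), and Clec7a to Lyz2 (1.10), Cybb (1.14) and Lyz1 (1.15). Clec4a2 was closest to BC028528 (0.40), Lilra6 (0.44) and Pirb (0.46), and Clec5a to Plek (0.54), Lilrb4a (0.54) and Ccl9 (0.55).

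Mrc1 lay closest to Npl (0.67), Clec4n (0.68) and Hvcn1 (0.70). The nearest genes differed within the Trem family. Treml4 was closest to Wfdc21 (0.65), its neighbour Trem3 (0.68) and Ifitm6 (0.71), Trem1 to Ankrd33b (0.39), Pirb (0.42) and Pilra (0.43), and Trem2 to the macrophage lectin Cd209d (0.58), Stab1 (0.61) and Tmem273 (0.63). For these 3 the nearest of the other receptors lay farther away, at 1.07 (Trem1 for Treml4), 0.54 (Clec4a2 for Trem1) and 0.95 (Clec4a2 for Trem2).

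Chemotherapy gave no called change in any receptor. The questions were whether residual cells differ from untreated tumors and whether relapsed cells differ from either. None of the 10 was called in residual against untreated, relapsed against untreated or relapsed against residual samples, where 0.105%, 0.0108% and 0.224% of all genes were called in either direction. By limma at an unadjusted p below 0.05, the counts were 0, 2 (Clec4n and Clec7a) and 2 (Clec7a and Treml4). The median difference over the 10 was -0.30, -0.61 and -0.33, against -0.0037, 0.014 and 0.016 over all genes, and relapsed means were below untreated means for all 10. On the 1 slide that held both relapsed (2) and untreated (1) samples the differences of 8 receptors had the opposite sign, among them Clec4d (1.01) and Trem2 (0.82), while Clec7a (-0.44) and Clec4a2 (-0.16) were again lower. The untreated sample on that slide was untreated 6, which lay below untreated 1, 2 and 3 for 9 of the 10 receptors.

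Clec7a came nearest to a difference. It was -2.10, -1.88, -1.32 and -1.48 in the 4 relapsed samples and between -1.17 and 0.90 in the residual ones (median -0.36), so the 2 groups did not overlap (1.02% of all genes were lower without overlap). The difference was -1.56 ± 0.58 (SE, limma, adjusted p = 0.50), with a 95% interval from -2.80 to -0.31. On the 1 slide that both groups shared it was -0.82. Clec4n was between 0.67 and 3.20 in untreated samples (median 1.71) and 0.85, 0.63, 1.16 and 0.68 in relapsed ones, a difference of -1.03 (95% interval -2.01 to -0.06, adjusted p = 0.61). Treml4 and Mrc1 were dim here: Treml4 was above background in 10 of 16 arrays in the sample channel and in 0 of 16 in the reference, and Mrc1 in 9 and 4, so their ratios rest on weak signals.

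Within the untreated group, samples 1, 2 and 3 stood above samples 4, 5 and 6 for 9 of the 10 receptors, all but Trem1. For Clec4n untreated 1, 2 and 3 had 3.03, 3.20 and 2.53, and untreated 4, 5 and 6 had 0.89, 0.84 and 0.67. Clec4a2 had 2.67, 3.02 and 1.77 against -0.13, 0.16 and 0.44, and Trem2 had 0.21, 0.87 and -0.19 against -2.53, -2.29 and -2.76. Among the residual samples, numbers 1 and 2 were likewise the highest for 9 of the 10 receptors, again all but Trem1. The macrophage list stood at 2.09, 2.32 and 1.91 in untreated 1 to 3 against 0.00 to 0.25 in untreated 4 to 6, and at 1.24 and 1.84 in residual 1 and 2 against -0.24 to 0.57 in the others, while the neutrophil list lay between 1.54 and 2.41 over the 16 arrays. Untreated 1, residual 1 and residual 2 shared a slide, whereas untreated 2 and 3 shared theirs with untreated 4 and 5. The median SD of the receptors was 1.27 in untreated, 0.74 in residual and 0.41 in relapsed samples, where the median over all genes was 0.17 to 0.18, and whether the spreads differed was not tested.

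**Figure D4:**
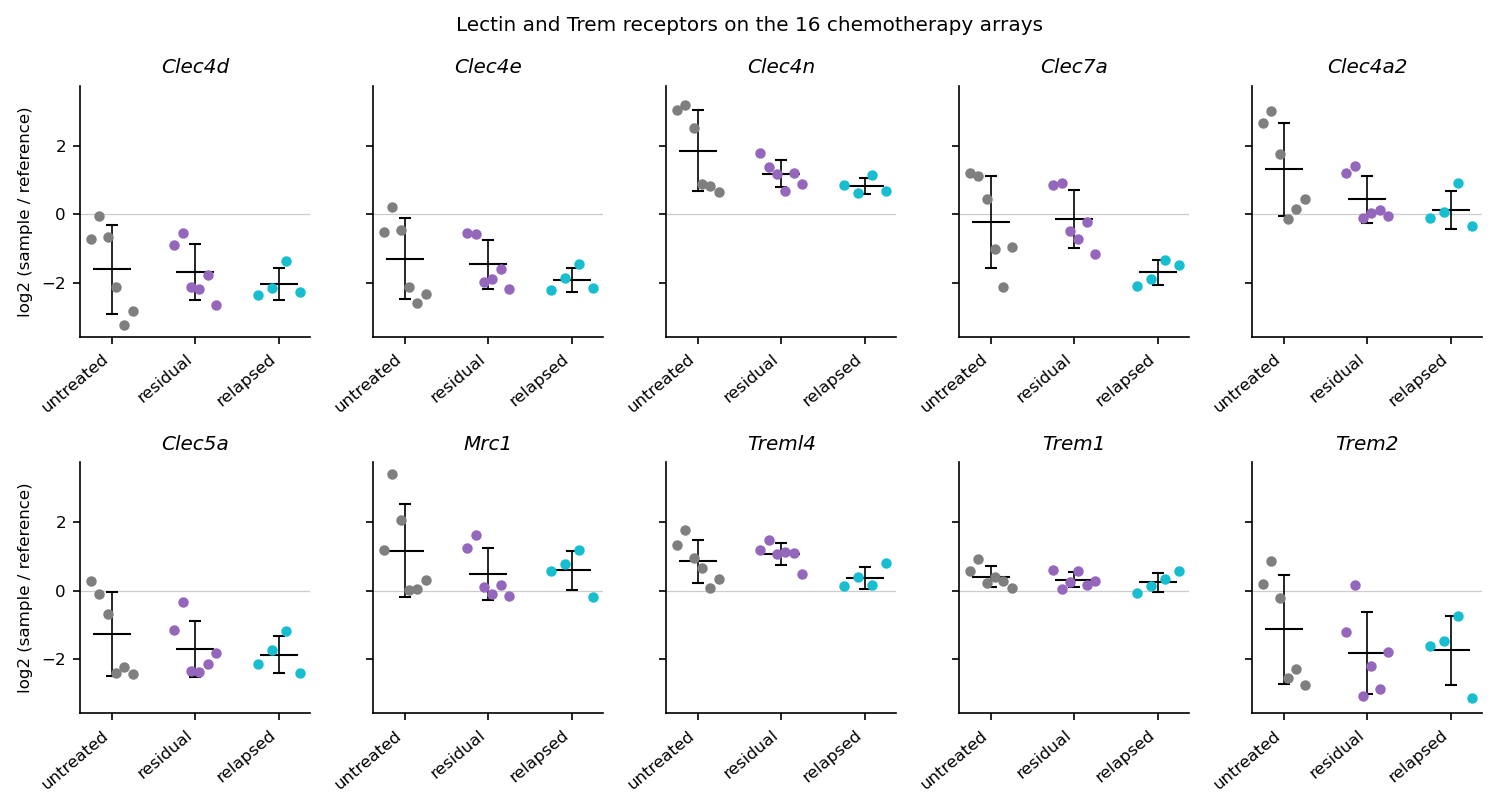
Levels of the 10 receptors on the 16 chemotherapy arrays. The vertical axis is the normalized log2 ratio of sample to reference; each point is an array, placed by group in the order of its replicate number, and bars are the group mean ± SD. The groups overlap for every receptor, except that the relapsed samples of Clec7a lie below the residual ones.

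Probes bear on 4 of the genes. The 10 receptors had 16 probes, and the brightest stood for each gene; positions are those of the array's annotation in build mm7. The Clec4a2 probe (chromosome 6, 123177429 to 123177488, plus strand) also carries the accession of Clec4b1 in that annotation, so the 2 genes cannot be told apart by it. A second Clec4a2 probe (123165001 to 123176223) gave a difference of 1.63 between metastases and adenoma, near the 1.60 of the first, and the third was above background on no array. For Clec5a the brightest probe (chromosome 6, 40507043 to 40507102, minus strand) rose by 4.02 and the other 2 differed by 1.57 (adjusted p over all probes = 0.11) and 0.82 (adjusted p = 0.072), on signals above background in 17 and 8 of 22 arrays. The 2 probes of Trem1 gave 2.68 and 2.53, and those of Trem2 gave 1.98 and 1.57.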

How the data were processed

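RNA of 38 samples of sorted GFP-positive cells was hybridized to Agilent 2-colour arrays, sample in Cy5 and Universal mouse reference in Cy3, without dye swaps; progression RNA had 2 rounds of amplification and chemotherapy RNA 1. The authors deposited the scanner intensity of each spot (Agilent Feature Extraction 10.7 per the submitters' processing notes) and a matrix of log2 ratios, used here as an alternative only. Its values correlated with those computed here at 0.966 to 0.998, with the same direction.

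Intensities were background-corrected (normexp, offset 50), loess-normalized within arrays, with control spots and outlying spots (at most 0.173%) left out, and quantile-normalized between arrays of 1 experiment. Each gene was represented by its brightest probe. The experiments were tested separately with limma 3.58.1 in R 4.3.3, all groups in 1 model, with Benjamini-Hochberg adjustment over 27670 genes; calls needed an adjusted p under 0.05 together with a change of 1 log2 unit or more. Probes were named by accession (22951), symbol (6659), synonym (3109) or the array's own name (8455). The number of arrays limits the precision.

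The receptors and gene lists were chosen with earlier results of these data known. Named genes were the receptors, the 3 genes most like each and, per list and comparison, at most 4 called genes of large change. Figures used matplotlib 3.10.9, and the fit was tested on simulated data. Alternatives covered background, normalization, probe choice, filters, blocks and left-out samples.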

Additional observations from a re-analysis of the deposited data

Results flagged for a closer look

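In 9 of the 70 sets formed by a receptor and a group, 1 sample lay far from the rest by Dixon's criterion, which chance meets in about 1 in 20 groups. Carcinoma 6 accounted for 6 of them: Clec4n at 6.06, Clec4a2 at 4.72, Clec5a at 3.69, Mrc1 at 4.86, Trem1 at 4.55 and Trem2 at 2.58 on the log2 scale, each above the other 5 carcinomas. Disseminated 6 was low for Clec4a2 (3.09) and for Trem1 (2.75), and adenoma 2 was low for Clec7a (-0.60).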

How the results depend on the processing

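No receptor was called in the 3 chemotherapy comparisons or between carcinoma and adenoma under any alternative run, the methods' t-test included. Of the values of single called receptors under alternatives, 297 kept their call, 35 lost it and 0 reversed. The count called in metastases against adenoma was 8, fell to 5 at an adjusted p below 0.01 and ranged from 7 to 9 with 1 sample left out; Trem1 and Clec7a lost their calls when spots with an outlying local background were left out (2.05 and 3.40). The count against carcinoma was 4, with 0 at an adjusted p below 0.01, 1 with only the 2 groups in the fit and 1 to 9 with 1 sample left out. It was 9 with carcinoma 6 and metastases 4 both left out, a setting chosen after seeing the data. Between disseminated cells and carcinoma 1 receptor was without overlap, with 0 from processed signals, median centring or the deposited matrix, 2 with Aquantile or no between-array normalization, 1 to 10 with 1 sample left out and 10 with both samples left out. Between metastases and disseminated cells it was 2, with 1 at a normexp offset of 0, 1 without spots of outlying background and 0 from processed signals. The cause of these changes was not tested. Shares over all genes are not given for the alternative counts of this section. The counts therefore cannot separate a change in the receptors from a change over all genes.

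Same-numbered samples of different groups did not deviate together (median correlation 0.04 over 14 pairs in the chemotherapy experiment and -0.01 over 31 pairs in the progression experiment), so the numbers were not taken as pairs. With the replicate block, 8 receptors were called against adenoma, 5 against carcinoma and 0 in each other tested comparison. A fixed slide block could not be fitted for comparisons of carcinoma or metastases with adenoma, and dim Treml4 and Mrc1 signals limit small differences.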
